A study of Mus musculus with 12 samples.

Results

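The 35 genes described here encode the machinery that makes sterols and fatty acids, and they were measured in epiphyseal chondrocytes of knockout and wild-type mice. They were chosen by gene symbol, as the regulators and enzymes of the 2 pathways, from the 49315 genes of the count table. Each of the 35 symbols matched a row, and all 35 passed the filter on low counts, which left 16565 genes for testing. In cells, the transcription factors SREBF1 and SREBF2 are made as precursors in the membrane of the endoplasmic reticulum. Their escort SCAP carries them to the Golgi to be cut when sterol is scarce, and INSIG1 and INSIG2 hold SCAP back when sterol is plentiful. The released fragments enter the nucleus and switch on the enzymes of both pathways, and signalling through the kinase AKT is known to favour that release. Cartilage has no blood vessels of its own, and human mutations in sterol enzymes such as EBP and NSDHL are known causes of skeletal malformation.

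Bulk RNA sequencing was done on 12 libraries, with 3 each from Phlpp1 KO, Phlpp2 KO, Phlpp1/2 KO and WT mice. All were labelled as female and 5 days old, and the strain was given as C57BL6 except in Phlpp2 KO 3 and the 3 Phlpp1/2 KO samples, whose labels end in other digits. PHLPP1 and PHLPP2 are phosphatases that take phosphate off AKT and other kinases. Collagenase-released cells had been frozen, thawed and kept overnight on plates in medium with serum, which itself holds sterol and fatty acids. The labels do not say how either gene was disrupted, nor whether animals were pooled, so p-values measure the spread between these samples.

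Library totals were 21706337 to 33115345 counts, and levels are given as CPM, a gene's counts scaled to a common library size. Phlpp1 stood at 7.71 to 9.46 CPM in the 6 libraries labelled as lacking it, against 35.1 to 44.6 CPM in the others. Phlpp2 stood at 22.8 to 24.9 CPM in the Phlpp1 KO, 16.8 to 19.4 CPM in the Phlpp2 KO, 10.2 to 11.4 CPM in the Phlpp1/2 KO and 22.4 to 28.1 CPM in WT. In the Phlpp2 KO it was 0.698 of the WT level and was not called by edgeR (adjusted p = 0.0607). The 7 chondrocyte markers, Col2a1 and Acan among them, summed to 28854 to 53017 CPM over the 12 libraries. Xist, the RNA that silences an X chromosome in female cells, was at 13.9 CPM in Phlpp1 KO 1 and 3.77 CPM in Phlpp1/2 KO 1, against 278 to 587 CPM in the other libraries, although all were labelled female.

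Promoter sequence is shown first for 3 genes whose values are followed below. They are Hmgcs1, an early sterol enzyme and a known SREBP target, Srebf1, which encodes an SREBP itself, and Ebp, a late sterol enzyme. RefSeq windows of the GRCm38.p6 build, from 250 bases before to 50 bases after a start site, were at hand for 28 of the 35 genes. Those of Fdps, Fdft1, Sqle, Stard4, Scd1, Scd2 and Fads1 are not shown here. Each sequence runs 5′ to 3′ along the gene's own strand, and capitals mark matches on either strand to TCACNCCAC (an SREBP motif), CCAAT (NF-Y) or GGGCGG (Sp1), each motif searched on its own. NF-Y and Sp1 are general factors known to act beside SREBPs.
Hmgcs1, chr13:119690101-119690400, plus strand: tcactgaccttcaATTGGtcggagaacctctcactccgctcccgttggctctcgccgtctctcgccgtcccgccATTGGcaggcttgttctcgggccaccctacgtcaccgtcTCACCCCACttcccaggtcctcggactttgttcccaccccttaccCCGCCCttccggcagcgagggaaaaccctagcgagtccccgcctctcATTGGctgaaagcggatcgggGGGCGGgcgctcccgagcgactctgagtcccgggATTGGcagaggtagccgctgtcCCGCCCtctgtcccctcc
Srebf1, chr11:60210422-60210721, minus strand, from among its 3 windows: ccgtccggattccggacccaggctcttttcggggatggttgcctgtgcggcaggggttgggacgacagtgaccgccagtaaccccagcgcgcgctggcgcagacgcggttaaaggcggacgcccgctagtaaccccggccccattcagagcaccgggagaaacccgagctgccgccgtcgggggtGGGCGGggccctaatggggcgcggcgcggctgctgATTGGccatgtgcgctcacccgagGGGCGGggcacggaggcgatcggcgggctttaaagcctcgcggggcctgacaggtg
Ebp, chrX:8193463-8193762, minus strand: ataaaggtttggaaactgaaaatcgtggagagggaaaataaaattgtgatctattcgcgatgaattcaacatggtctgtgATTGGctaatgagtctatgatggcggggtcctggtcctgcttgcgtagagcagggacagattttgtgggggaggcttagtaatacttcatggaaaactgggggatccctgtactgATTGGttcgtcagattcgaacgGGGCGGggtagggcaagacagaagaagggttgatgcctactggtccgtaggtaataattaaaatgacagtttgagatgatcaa

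The SREBP motif TCACNCCAC was found in 1 of the 37 windows of the 28 genes, that of Hmgcs1, where it starts at position −137 from the start site. This is 2.7% of their windows, against 1.24% of 32851 windows of all genes in the table. CCAAT was found in 64.9% of the members' windows, against 37.4% of all windows and 38.2% of those of protein-coding genes. GGGCGG was found in 73.0% of them, against 35.7% of all windows and 46.2% of those of protein-coding genes. A match is a description of letters, and a site that departs from the exact letters searched would not be counted. These windows are also short, so a motif further away would not be counted. A window without a match is therefore not shown to lack a site.

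In no knockout did any of the 35 genes pass the test across all genes (edgeR, quasi-likelihood F test, Benjamini-Hochberg adjusted p under 0.05). Among all 16565 genes, 0.537% were called in the Phlpp1 KO (0.211% higher, 0.326% lower), 0.121% in the Phlpp2 KO (0.0604% higher, 0.0604% lower) and 0.235% in the Phlpp1/2 KO (0.103% higher, 0.133% lower), each against WT. At an unadjusted p under 0.05, 0 members were higher and 6 lower in the Phlpp1 KO, where 20.4% of all genes had such a p (10.8% higher, 9.54% lower). In the Phlpp2 KO 2 members were higher and 7 lower at that p, where 8.48% of all genes were higher and 5.29% lower. In the Phlpp1/2 KO 0 members were higher and 4 lower, where 4.99% of all genes were higher and 6.09% lower. The 3 comparisons share the WT libraries. By another test, DESeq2, 4 members were called in the Phlpp1 KO (Scd1, Scd2, Srebf1 and Ebp, all lower), 0 in the Phlpp2 KO and 1 in the Phlpp1/2 KO (Srebf1, lower), where DESeq2 called 995, 318 and 164 genes in all.

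With every library kept, most members lay slightly below WT, but the counts moved when single libraries were left out. In the Phlpp1 KO 28 of 35 had a negative log2 fold change, with a median of −0.095 against −0.013 over all genes tested. In the Phlpp2 KO it was also 28 of 35, with a median of −0.078 against −0.017 over all genes. In the Phlpp1/2 KO it was 21 of 35, with a median of −0.033 against −0.0014 over all genes. Across 18 other ways of processing, the members' median ran from −0.10 to −0.054 in the Phlpp1 KO. It ran from −0.079 to −0.041 in the Phlpp2 KO and from −0.047 to −0.0046 in the Phlpp1/2 KO. Lower members numbered 23 to 30, 20 to 28 and 18 to 23 of 35 in the same order. Without WT 1, a library that all these comparisons share, they numbered 23, 25 and 18 of 35. Without Phlpp2 KO 1 they numbered 20 of 35 in the Phlpp2 KO. Since these comparisons share their WT libraries, the shifts against WT are not independent of each other.

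**Figure D1:**
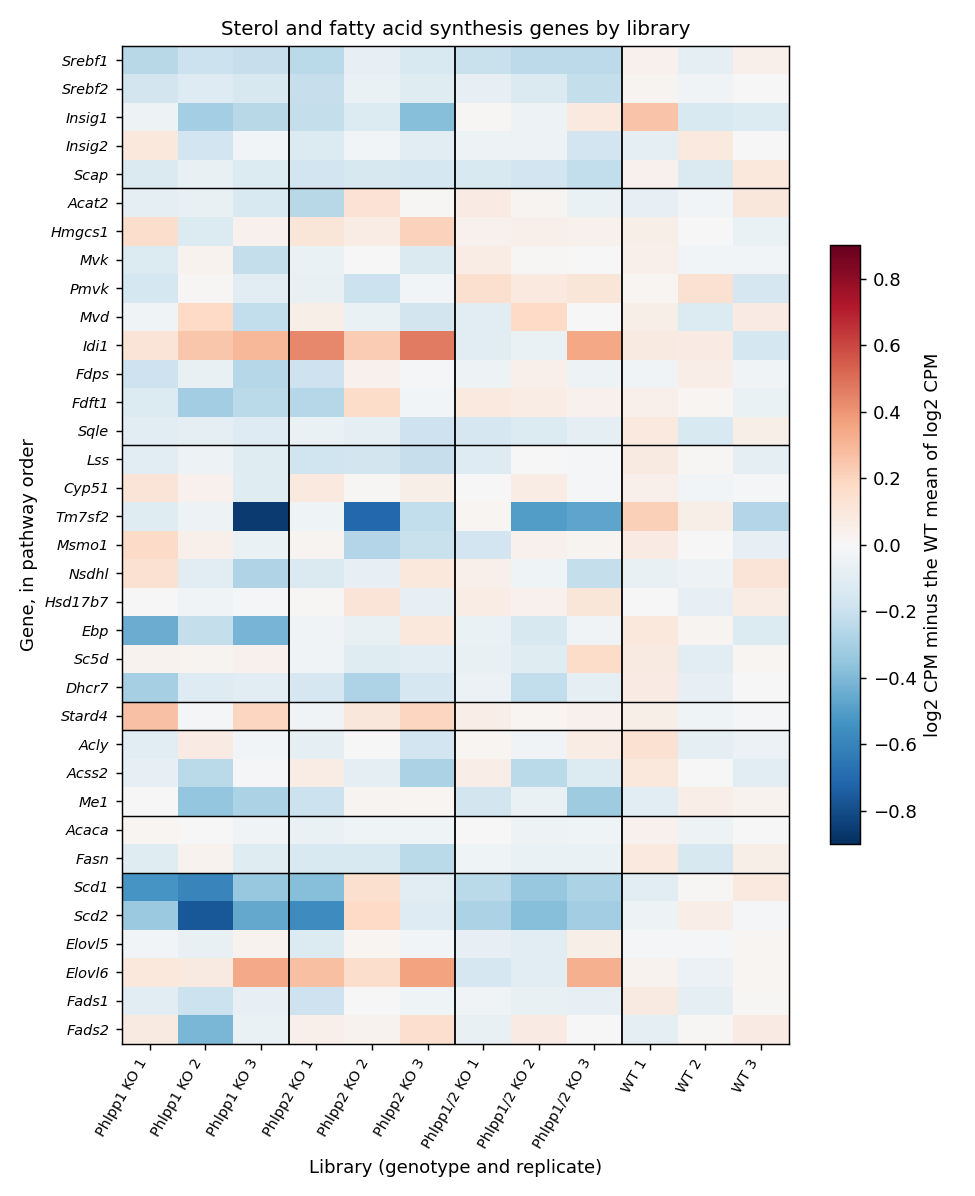
Level of each of the 35 genes (rows, in pathway order, black lines between roles) in each of the 12 libraries (columns, by genotype), as log2 CPM minus the mean of log2 CPM in WT, so that blue is below and red above WT. Most squares are pale, Scd1 and Scd2 are blue in all 3 Phlpp1 KO and all 3 Phlpp1/2 KO libraries, and Idi1 is red in the 3 Phlpp2 KO libraries.

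Among the regulators, Srebf1 (ENSMUSG00000020538, chr11:60199089-60222581 in the mm10 build) lay below WT in all 9 knockout libraries but 1. Its level was 105, 109 and 108 CPM in Phlpp1 KO libraries, 106, 119 and 114 CPM in Phlpp2 KO, 109, 106 and 106 CPM in Phlpp1/2 KO and 128, 118 and 129 CPM in WT. Phlpp2 KO 2 alone reached into the WT range. The log2 fold change was −0.22 in the Phlpp1 KO (SE 0.056, adjusted p = 0.0896), −0.15 in the Phlpp2 KO (SE 0.056, adjusted p = 0.267) and −0.23 in the Phlpp1/2 KO (SE 0.056, adjusted p = 0.181). With DESeq2 the adjusted p was 0.0167 in the Phlpp1 KO and 0.0318 in the Phlpp1/2 KO. Without Phlpp2 KO 1 edgeR gave 0.0457 in the Phlpp1 KO, and without the libraries low in Xist 0.228 at a log2 fold change of −0.18. Counts of Srebf1 sum its transcript forms, which start at different promoters, and part of its exons overlap Rai1 on the other strand.

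Srebf2, which favours the sterol genes, had 100.2, 104 and 102 CPM in Phlpp1 KO libraries, 97.6, 108 and 104 CPM in Phlpp2 KO, 107, 102 and 96.8 CPM in Phlpp1/2 KO and 114, 110.1 and 113 CPM in WT. Every knockout library was below the lowest WT library, by little. The log2 fold changes were −0.14, −0.12 and −0.14 in the Phlpp1 KO, Phlpp2 KO and Phlpp1/2 KO (SE 0.055 in the Phlpp1 KO, adjusted p = 0.172, 0.344 and 0.360).

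Scap, the escort, had 98.3, 103 and 98.8 CPM in Phlpp1 KO libraries, 95.6, 97.6 and 96.4 CPM in Phlpp2 KO, 98.1, 95.4 and 92.2 CPM in Phlpp1/2 KO and 111, 98.4 and 115 CPM in WT. The Phlpp2 KO and Phlpp1/2 KO libraries all lay below the WT libraries, whereas Phlpp1 KO libraries overlapped them. Its log2 fold change was −0.16 in the Phlpp2 KO (SE 0.059, adjusted p = 0.265) and −0.18 in the Phlpp1/2 KO (SE 0.059, adjusted p = 0.311). Insig1, itself a target of the SREBPs and a brake on them, had 23.2, 19.3 and 20.1 CPM in Phlpp1 KO libraries, 20.6, 21.9 and 18.3 CPM in Phlpp2 KO, 24.0, 23.2 and 25.4 CPM in Phlpp1/2 KO and 28.6, 21.7 and 21.9 CPM in WT. WT 1 was the highest library and Phlpp2 KO 3 the lowest, and every knockout group overlapped WT. Its log2 fold changes were −0.21 (Phlpp1 KO, adjusted p = 0.325), −0.24 (Phlpp2 KO, 0.361) and 0.010 (Phlpp1/2 KO, 0.988). Without WT 1 they were −0.047, −0.088 and 0.16 in the same order. Insig2, which lies 14.9 Mb from Phlpp1 on chromosome 1, had log2 fold changes of −0.032, −0.085 and −0.088 in the same order (adjusted p = 0.849, 0.658 and 0.705).

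The enzymes from acetyl-CoA to squalene are Acat2, Hmgcs1, Mvk, Pmvk, Mvd, Idi1, Fdps, Fdft1 and Sqle. None was called, and 1 of the 9 had an unadjusted p under 0.05 in the Phlpp1 KO (Fdft1, lower), 1 in the Phlpp2 KO (Idi1, higher) and 0 in the Phlpp1/2 KO. Hmgcs1, which makes HMG-CoA and whose promoter window holds the SREBP motif, had 53.4, 44.1 and 49.3 CPM in Phlpp1 KO libraries, 51.6, 50.2 and 55.4 CPM in Phlpp2 KO, 49.2, 49.5 and 49.2 CPM in Phlpp1/2 KO and 49.7, 48.1 and 46.0 CPM in WT. Its log2 fold changes were 0.031 in the Phlpp1 KO (SE 0.071), 0.13 in the Phlpp2 KO (SE 0.071) and 0.042 in the Phlpp1/2 KO (SE 0.071), with adjusted p of 0.850, 0.449 and 0.868. The 3 Phlpp2 KO libraries were above the 3 WT libraries, while the other knockouts overlapped WT.

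Idi1, which isomerises isopentenyl diphosphate, had 6.90, 7.56 and 7.83 CPM in Phlpp1 KO libraries, 8.57, 7.44 and 8.82 CPM in Phlpp2 KO, 5.96, 6.12 and 8.09 CPM in Phlpp1/2 KO and 6.74, 6.70 and 5.70 CPM in WT. All Phlpp1 KO and all Phlpp2 KO libraries lay above WT, but among Phlpp1/2 KO libraries only replicate 3 did. The Phlpp2 KO gave the largest positive log2 fold change of any member in the 3 comparisons with WT, 0.38 (SE 0.14, 95% interval of the change 5.74% to 59.0%, adjusted p = 0.258). It was 0.22 in the Phlpp1 KO (adjusted p = 0.393) and 0.077 in the Phlpp1/2 KO (adjusted p = 0.875). Idi1 rested on 149 to 274 counts a library and has near-identical copies in Gm13502 and Gm35570, which held 45 and 10 counts over all libraries against 2470 for Idi1.

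Sqle, the epoxidase that opens the way from squalene to sterols, had 41.5, 42.0 and 41.1 CPM in Phlpp1 KO libraries, 42.7, 42.0 and 39.1 CPM in Phlpp2 KO, 40.1, 41.0 and 41.9 CPM in Phlpp1/2 KO and 47.2, 40.4 and 46.3 CPM in WT. WT 2 lay within the knockout range and the other WT libraries above it. Its log2 fold changes were −0.10, −0.11 and −0.12 in the Phlpp1 KO, Phlpp2 KO and Phlpp1/2 KO (adjusted p = 0.400, 0.489 and 0.520). They were −0.042, −0.052 and −0.067 without WT 1, and −0.16, −0.17 and −0.18 without WT 2. Fdft1, the squalene synthase, stood at −0.22 in the Phlpp1 KO (SE 0.10, adjusted p = 0.213), and shares 774 bases with Ctsb on the other strand, which held 108360 counts over all libraries against 7654 for Fdft1. Fdps, which makes farnesyl diphosphate, stood at −0.17 there (adjusted p = 0.268). The other 5 enzymes, Acat2, Mvk, Pmvk, Mvd and Hmgcs1, had log2 fold changes of −0.10 to 0.031 in the Phlpp1 KO.

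Steps from lanosterol to cholesterol are carried by Lss, Cyp51, Tm7sf2, Msmo1, Nsdhl, Hsd17b7, Ebp, Sc5d and Dhcr7, of which none was called. Ebp (ENSMUSG00000031168, chrX:8185329-8193512), the sterol isomerase encoded on the X chromosome, had 15.1, 17.7 and 15.4 CPM in Phlpp1 KO libraries, 20.1, 19.6 and 22.0 CPM in Phlpp2 KO, 19.7, 18.7 and 20.1 CPM in Phlpp1/2 KO and 22.0, 21.0 and 18.9 CPM in WT. The 3 Phlpp1 KO libraries were below all 9 others, and the Phlpp2 KO and Phlpp1/2 KO libraries overlapped WT. Ebp averaged 16.1 ± 1.44 CPM in the Phlpp1 KO and 20.6 ± 1.61 CPM in WT (SD, n = 3 each), which is −0.36 as a log2 fold change (SE 0.087, edgeR's adjusted p = 0.0836, 95% interval of the change −31.5% to −11.0%). With DESeq2 the adjusted p was 0.0156, and it was 0.0465 in an edgeR fit to the 6 libraries compared. Without Phlpp1 KO 1 and Phlpp1/2 KO 1, the libraries low in Xist, the log2 fold change was −0.29 (adjusted p = 0.211). Nsdhl, the other X-linked enzyme of the group, stood at −0.068 in the Phlpp1 KO (adjusted p = 0.807).

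Lss, which closes squalene epoxide into lanosterol, had 24.8, 25.8 and 24.6 CPM in Phlpp1 KO libraries, 23.5, 23.7 and 23.0 CPM in Phlpp2 KO, 24.5, 26.6 and 26.3 CPM in Phlpp1/2 KO and 28.2, 26.7 and 25.0 CPM in WT. Phlpp2 KO libraries lay close together and below all WT libraries, at a log2 difference of −0.18 (SE 0.065, adjusted p = 0.247). It was −0.086 in the Phlpp1 KO (adjusted p = 0.489) and −0.044 in the Phlpp1/2 KO (adjusted p = 0.846). Dhcr7, the last reductase on the way to cholesterol, stood at −0.17, −0.19 and −0.12 in the Phlpp1 KO, Phlpp2 KO and Phlpp1/2 KO (adjusted p = 0.274, 0.330 and 0.634). Cyp51, the lanosterol demethylase, stood between 0.016 and 0.051 over the 3 knockouts. Tm7sf2, a sterol reductase, rested on 22 to 49 counts a library, and its intervals, such as −44.4% to 20.3% in the Phlpp1 KO, were the widest. It shares 532 bases with Vps51 on the same strand, which held 9241 counts over all libraries against 459 for Tm7sf2. Stard4, which carries cholesterol between membranes, stood at 0.15 in the Phlpp1 KO, 0.091 in the Phlpp2 KO and 0.038 in the Phlpp1/2 KO (adjusted p = 0.306, 0.660 and 0.898).

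In the Phlpp1 KO the largest negative values belonged to the desaturases Scd1 and Scd2, which put the first double bond into saturated fatty acids. Scd1 (ENSMUSG00000037071, chr19:44394455-44407879) had 57.8, 55.3 and 65.7 CPM in Phlpp1 KO libraries, 63.8, 92.0 and 77.7 CPM in Phlpp2 KO, 70.3, 66.0 and 68.4 CPM in Phlpp1/2 KO and 77.7, 84.1 and 88.5 CPM in WT. All Phlpp1 KO and all Phlpp1/2 KO libraries were below all WT libraries, and the Phlpp2 KO libraries were spread from below to above the WT range. Scd1 averaged 59.6 ± 5.40 CPM in the Phlpp1 KO, 77.8 ± 14.1 CPM in the Phlpp2 KO, 68.2 ± 2.17 CPM in the Phlpp1/2 KO and 83.5 ± 5.44 CPM in WT (SD, n = 3 each). The log2 fold change was −0.49 in the Phlpp1 KO (SE 0.11, adjusted p = 0.0722 by edgeR), with a 95% interval of −39.6% to −15.8% for the change. It was −0.10 in the Phlpp2 KO (adjusted p = 0.735) and −0.29 in the Phlpp1/2 KO (adjusted p = 0.346).

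Scd1 in the Phlpp1 KO passed the threshold in 6 of the 18 other ways of processing and was lower in all 18. The adjusted p was 0.00555 with DESeq2, 0.0262 with no filter on low counts and 0.00904 with only the 6 libraries compared. It also passed without Phlpp2 KO 1 (0.0126), without Phlpp2 KO 2 (0.0267) and without Phlpp1/2 KO 3 (0.0471), libraries of genotypes outside this comparison that add to its estimate of the spread. Genes called in all under these 6 settings were 995, 461, 1163, 390, 196 and 647 in the order given, against 89 as reported. Without the libraries low in Xist the log2 fold change was −0.45 (adjusted p = 0.175). Over all 18 the adjusted p ran from 0.00555 to 0.215.

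Scd2 (ENSMUSG00000025203, chr19:44293674-44306864) was named after its values were seen, as the neighbour of Scd1 and its close relative. It had 133, 98.5 and 122 CPM in Phlpp1 KO libraries, 113, 189 and 154 CPM in Phlpp2 KO, 138, 128 and 135 CPM in Phlpp1/2 KO and 162, 174 and 166 CPM in WT. As for Scd1, Phlpp1 KO and Phlpp1/2 KO libraries were all below WT, and Phlpp2 KO 1 was low while Phlpp2 KO 2 was the highest library of all. Its log2 fold changes were −0.51 in the Phlpp1 KO (SE 0.16, adjusted p = 0.118), −0.14 in the Phlpp2 KO (adjusted p = 0.746) and −0.33 in the Phlpp1/2 KO (adjusted p = 0.468). In the Phlpp1 KO the adjusted p was 0.0259 with DESeq2, 0.0184 with the 6 libraries compared and 0.0316 without Phlpp2 KO 1. Without the libraries low in Xist the log2 fold change was −0.59 (adjusted p = 0.184). Transcripts of Scd1 and Scd2 are 95.5% identical over 623 bases, so some reads cannot be assigned to either with certainty.

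**Figure D2:**
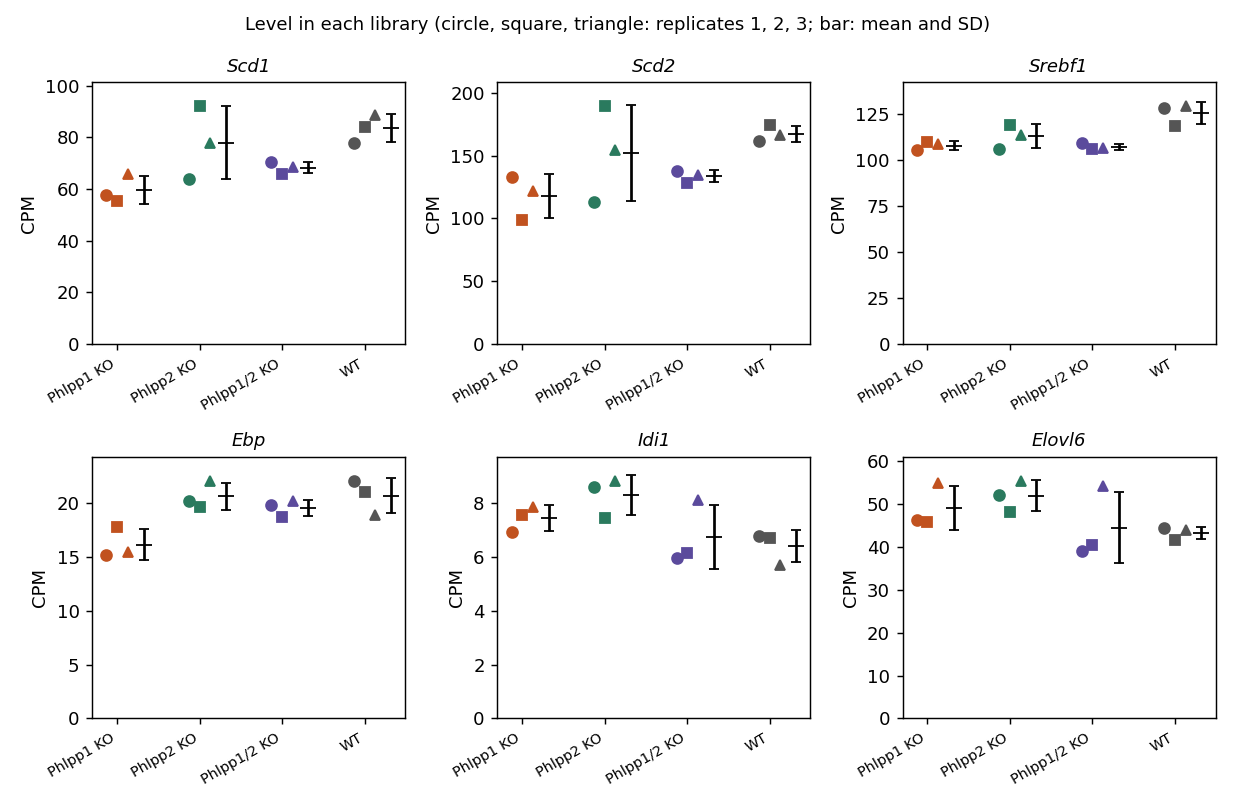
CPM (vertical axes, from 0) of Scd1, Scd2, Srebf1, Ebp, Idi1 and Elovl6 in each library by genotype, with circle, square and triangle for replicates 1, 2 and 3 and black bars for the mean and SD of 3 libraries. For Ebp the 3 Phlpp1 KO libraries sit at 15.1 to 17.7 CPM, below the 9 others, while Scd1 in the Phlpp2 KO spans 63.8 to 92.0 CPM.

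Of the marker lists for other cell types, those of fat and of skin are given here because adipocytes and sebaceous glands are rich in Scd1. The 6 adipocyte markers summed to 2.89 to 3.37 CPM in the Phlpp1 KO, 2.38 to 5.96 CPM in the Phlpp2 KO, 3.74 to 4.43 CPM in the Phlpp1/2 KO and 2.94 to 5.44 CPM in WT. Each knockout overlapped WT, while the Phlpp1 KO sums all lay below the Phlpp1/2 KO sums. Of the 6 markers 2 passed the filter on low counts, and the most defining of them, Adipoq, was at most 0.109 CPM in any library. The 5 keratinocyte and sebaceous markers summed to 1.85 to 2.86 CPM in the Phlpp1 KO, 1.32 to 2.03 CPM in the Phlpp2 KO, 1.54 to 1.71 CPM in the Phlpp1/2 KO and 2.38 to 3.13 CPM in WT. All Phlpp2 KO and Phlpp1/2 KO sums were below all WT sums, and the Phlpp1 KO sums overlapped them. Only 2 of these 5 passed the filter on low counts. The sums rest mostly on Krt79, at 26 to 74 counts a library, and Krt5, at 6 to 20. Krt14, Krt15 and Mc5r had at most 4 counts in any library. The part of either list in the levels of Scd1 and Scd2 was not tested, and fewer cells of a type and less RNA per cell cannot be told apart in bulk samples. Skeletal muscle markers, 6 in all, summed to 6.09 to 30.9 CPM in the Phlpp1 KO, 4.83 to 9.76 CPM in the Phlpp2 KO, 9.15 to 19.4 CPM in the Phlpp1/2 KO and 13.2 to 67.2 CPM in WT, with the Phlpp2 KO sums all below WT. The 6 macrophage markers summed to 22.4 to 27.5 CPM in the Phlpp1 KO, 21.6 to 35.6 CPM in the Phlpp2 KO, 28.5 to 39.6 CPM in the Phlpp1/2 KO and 23.5 to 30.02 CPM in WT. The part of these 2 lists in the members' levels was not tested.

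The other fatty acid enzymes had smaller differences in the Phlpp1 KO. Fasn, the synthase itself, had 213, 235 and 214 CPM in Phlpp1 KO libraries, 209, 209 and 194 CPM in Phlpp2 KO, 224, 221 and 221 CPM in Phlpp1/2 KO and 245, 208 and 239 CPM in WT. Phlpp2 KO libraries were the lowest as a group but overlapped WT 2, and the log2 fold change there was −0.18 (SE 0.068, adjusted p = 0.278). It was −0.064 in the Phlpp1 KO (adjusted p = 0.637) and −0.056 in the Phlpp1/2 KO (adjusted p = 0.808). Acaca, the carboxylase that makes malonyl-CoA, stood at −0.0044, −0.047 and −0.026 in the Phlpp1 KO, Phlpp2 KO and Phlpp1/2 KO, and its 95% intervals reached at most −9.73% and 6.91%.

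Of the suppliers, Acly, which makes cytosolic acetyl-CoA from citrate, had log2 fold changes of −0.016, −0.086 and 0.014 in that order. Me1, the malic enzyme that supplies NADPH, stood at −0.21 in the Phlpp1 KO (SE 0.10, adjusted p = 0.249), −0.047 in the Phlpp2 KO (0.868) and −0.18 in the Phlpp1/2 KO (0.520). Acss2, which makes acetyl-CoA from acetate, ran from −0.11 to −0.092 over the knockouts on 90 to 136 counts a library.

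Elovl6, the elongase of saturated fatty acids, stood on the other side of WT and was named after its values were seen. It had 46.2, 45.9 and 55.0 CPM in Phlpp1 KO libraries, 52.3, 48.2 and 55.5 CPM in Phlpp2 KO, 39.0, 40.5 and 54.2 CPM in Phlpp1/2 KO and 44.4, 41.7 and 43.9 CPM in WT. Phlpp1 KO and Phlpp2 KO libraries all lay above WT, but of the Phlpp1/2 KO libraries only replicate 3. The log2 fold changes were 0.18 in the Phlpp1 KO (adjusted p = 0.410), 0.26 in the Phlpp2 KO (SE 0.11, adjusted p = 0.339) and 0.041 in the Phlpp1/2 KO (adjusted p = 0.926). Elovl5, Fads1 and Fads2, which lengthen and desaturate polyunsaturated fatty acids, stood between −0.12 and 0.074 in every knockout.

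**Figure D3:**
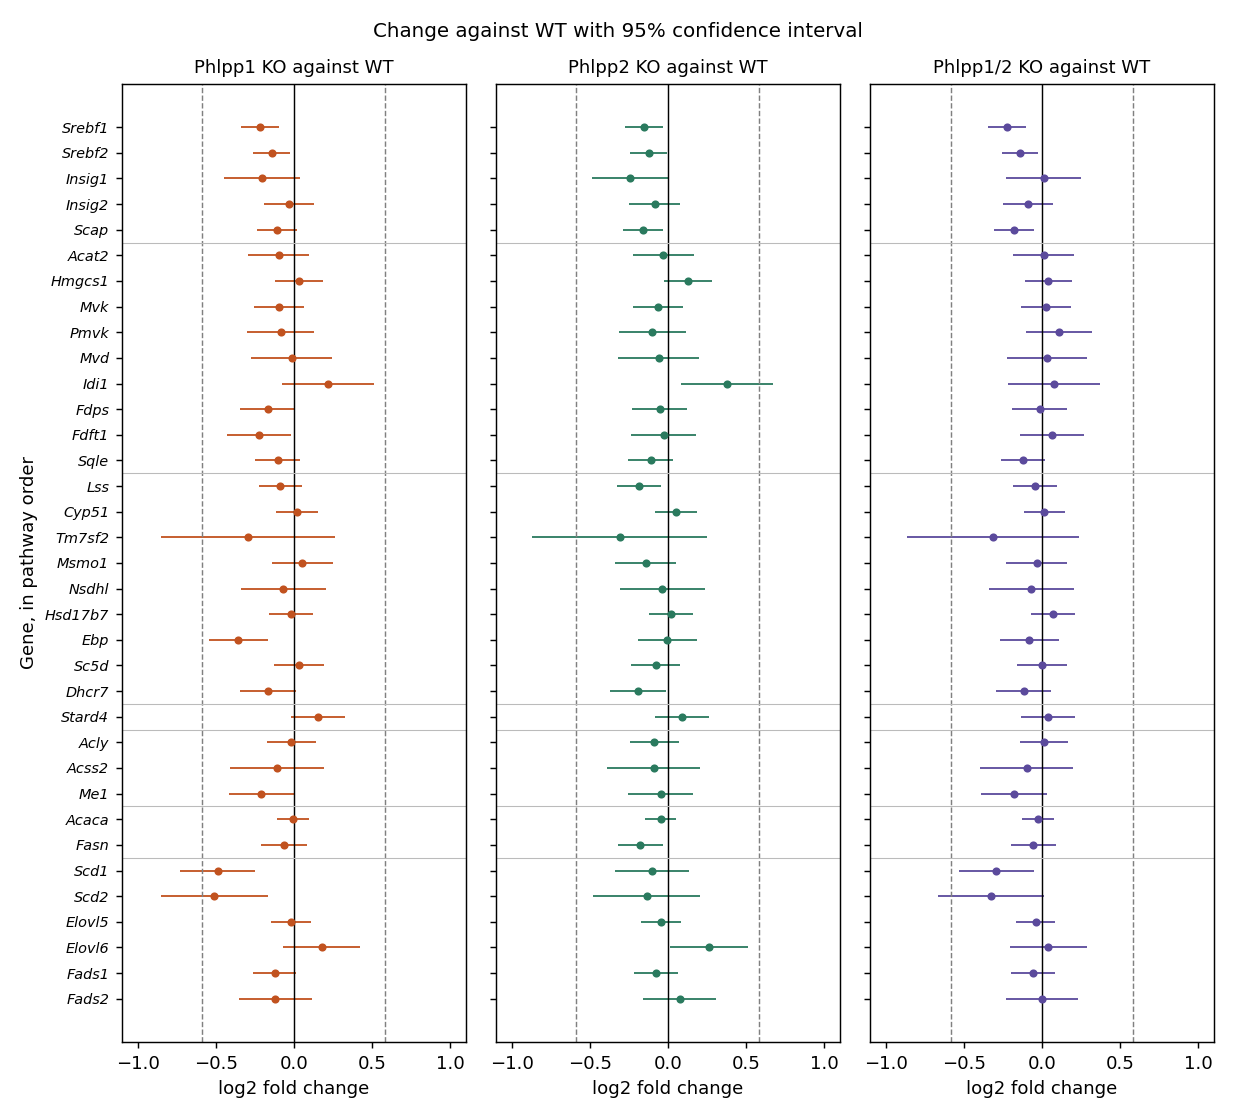
Log2 fold change against WT (horizontal axes) with its 95% confidence interval for each of the 35 genes (rows, in pathway order), with 1 panel each for the Phlpp1 KO, Phlpp2 KO and Phlpp1/2 KO; dashed lines mark a 1.5-fold difference. The intervals of 32, 33 and 33 of the 35 genes lie inside those lines in the 3 panels, with Tm7sf2 outside in each.

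The intervals give a range for each difference under the processing reported here. Each was set for 1 gene in 1 comparison, with no adjustment for the number of genes. In the Phlpp1 KO the 95% interval of 32 of 35 members lay within 1.5-fold of WT, the exceptions being Scd1, Scd2 and Tm7sf2, where 59.1% of all genes tested had such an interval. In the Phlpp2 KO it was 33 of 35 (all but Idi1 and Tm7sf2, against 62.2% of all genes), and in the Phlpp1/2 KO 33 of 35 (all but Scd2 and Tm7sf2, against 63.2%). Every member's interval lay within 2-fold of WT in all 3 comparisons. The shares over all genes were not matched for level, and only 12166 of the genes tested had a mean level inside the members' range. They therefore do not show that the members were steadier than other genes at their levels.

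Counting members whose 3 libraries all lay on 1 side of the 3 WT libraries gave a share near that of all genes. In the Phlpp1 KO it was 10 of 35, 28.6% of the members against 28.2% of all genes, with 2 higher and 8 lower where 14.9% of all genes were higher and 13.3% lower. In the Phlpp2 KO it was 7 of 35 against 19.1% of all genes, with 3 higher and 4 lower where 10.3% were higher and 8.87% lower. The Phlpp1/2 KO had 5 of 35, 14.3% against 18.9% of all genes, with 0 higher and 5 lower where 8.57% were higher and 10.3% lower. The 5 were Srebf1, Srebf2, Scap, Scd1 and Scd2.

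Pooling the 6 libraries that lack a gene by label against the 6 that do not gave the main effect of each loss, with 0 members called by edgeR for either. For Phlpp1 loss 0.592% of all genes were called (0.229% higher, 0.362% lower), and 0 members were higher and 5 lower at an unadjusted p under 0.05, where 6.0% of all genes were higher and 8.36% lower. Scd1 stood at −0.34 (SE 0.078, adjusted p = 0.0799, interval of the change −29.7% to −11.1%), Srebf1 at −0.15 (SE 0.040, adjusted p = 0.129) and Ebp at −0.22 (SE 0.061, adjusted p = 0.143). DESeq2 called 3 members among 406 genes, with an adjusted p of 0.00637 for Scd1, 0.0336 for Srebf1 and 0.0481 for Scd2. No member kept the 6 and 6 libraries apart, as 1.09% of all genes did. Leaving out each of the 12 libraries in turn gave 0 called members in 11 refits. In the other, without Phlpp2 KO 1, the lowest library for Scd1 and Scd2 among those that keep Phlpp1, edgeR called the same 3 among 568 genes, with an adjusted p of 0.00594 for Scd1, 0.0307 for Srebf1 and 0.0132 for Scd2.

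For Phlpp2 loss 0.0906% of all genes were called (0.0423% higher, 0.0483% lower), and 1 member was higher and 1 lower at an unadjusted p under 0.05, where 6.94% of all genes had such a p (3.45% higher, 3.5% lower). These were Ebp at 0.14 (adjusted p = 0.712) and Scap at −0.11 (SE 0.042, adjusted p = 0.632). Scap was the single member with its 6 and 6 libraries apart, at 92.2 to 98.1 CPM with the loss and 98.3 to 115 CPM without it, as 0.32% of all genes were (0.175% lower). DESeq2 called 0 members here too.

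Whether the 2 losses add up on the log2 scale was asked by the interaction, the log2 difference of Phlpp1/2 KO to Phlpp2 KO minus that of Phlpp1 KO to WT. By edgeR 0 members and 0.0483% of all genes were called (0.0302% positive, 0.0181% negative), and DESeq2 called 0 members. The calls over all genes were 5 positive and 3 negative here, but 38 and 603 with DESeq2, 13 and 170 with no filter and 6 and 302 with a replicate block. At an unadjusted p under 0.05, 4 members were positive and 2 negative, where 4.48% of all genes were positive and 10.1% negative. Insig1 stood at 0.46 (SE 0.16, adjusted p = 0.190), Lss at 0.23 (SE 0.091, adjusted p = 0.261) and Idi1 at −0.52 (SE 0.19, adjusted p = 0.220). Elovl6 stood at −0.40 (SE 0.16, adjusted p = 0.264). With each library left out in turn, 11 of 12 refits called 0 members. The other left out Phlpp1/2 KO 3, the highest of its group for Idi1 and Elovl6, and called both, with Idi1 at −0.69 (adjusted p = 0.0316, and 0.0316 to 0.479 over 17 settings). In that refit 1196 genes were called in all, against 8 with every library. Of the 35 members 30 had a positive interaction (median 0.10), where 56.1% of all genes did (median 0.037). The members' median ran from 0.060 without WT 1, where 27 were positive, to 0.14 without WT 2 over 17 settings.

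Levels differed far more between members than between genotypes. Exon length here counted each base of all annotated exons of a gene once. It can exceed the length of the transcripts in use, so the order of genes at close levels is uncertain. Per kilobase of exon length, the mean level was highest for Me1, at 57.1 ± 7.53 CPM per kb in the Phlpp1 KO, 63.8 ± 5.32 in the Phlpp2 KO, 58.2 ± 5.29 in the Phlpp1/2 KO and 65.9 ± 3.66 in WT (SD, n = 3 each). Acly came next, at 48.1 ± 2.80, 45.8 ± 2.82, 49.1 ± 1.62 and 48.6 ± 4.17 CPM per kb in the same order. Scd2 followed in WT, at 21.6 ± 3.22, 27.9 ± 6.97, 24.4 ± 0.885 and 30.7 ± 1.16 CPM per kb. In WT the next 3, Srebf1, Fasn and Elovl5, at 22.2 ± 1.05, 21.1 ± 1.80 and 20.6 ± 0.262 CPM per kb, lay close together, Fasn overlapping both others and Srebf1 above Elovl5 in every WT library. Among sterol enzymes Cyp51 was the highest in WT, at 12.9 ± 0.342 CPM per kb, and Idi1, at 1.82 ± 0.169, and Tm7sf2, at 0.358 ± 0.0586, the lowest. Acss2 was the lowest fatty acid gene, at 0.414 ± 0.0267 CPM per kb in WT.

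**Figure D4:**
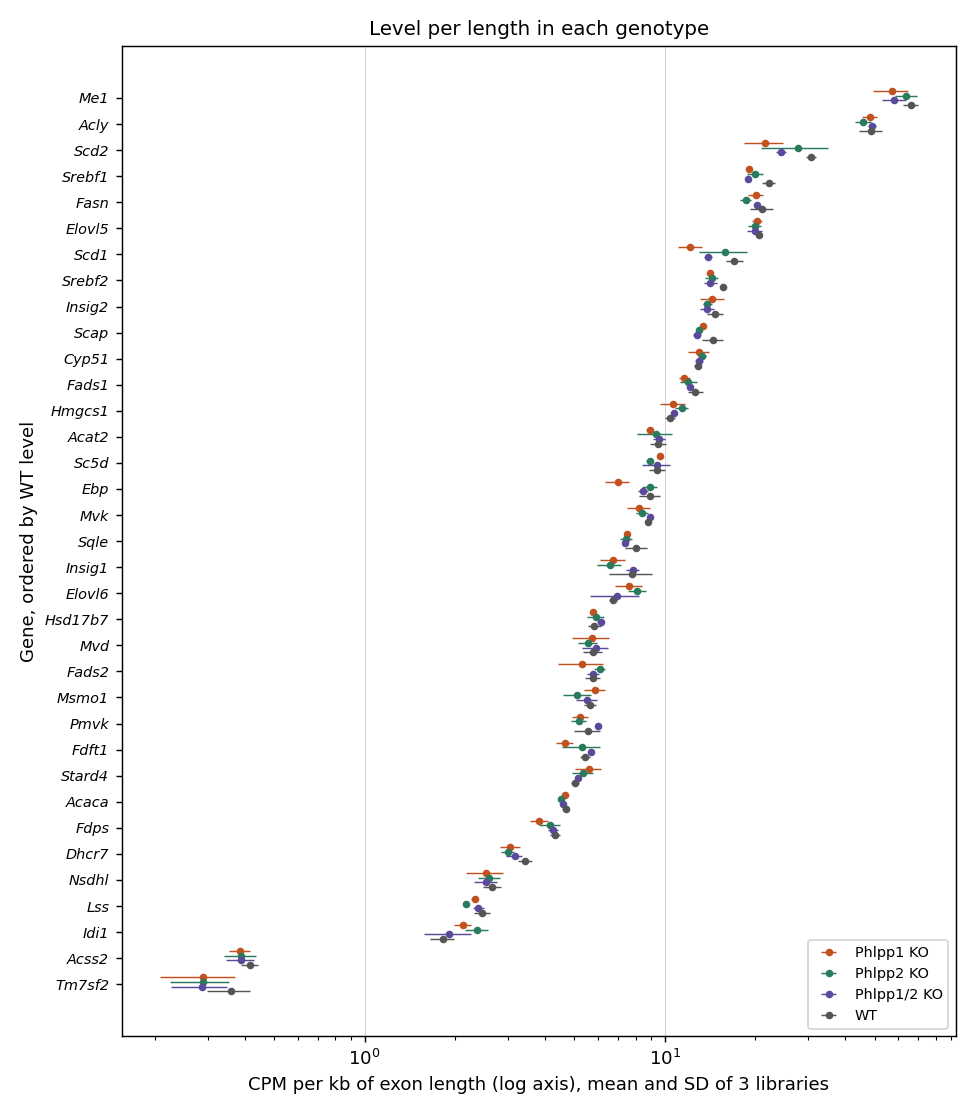
Mean level per kilobase of exon length (CPM per kb, log axis) with SD of 3 libraries for each of the 35 genes (rows, ordered by WT level) in the Phlpp1 KO, Phlpp2 KO, Phlpp1/2 KO and WT. The spread between rows is far wider than that between genotypes within a row, and the rows run from Me1 at 65.9 down to Tm7sf2 at 0.358 CPM per kb in WT.

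Replicates varied little for most members. The coefficient of variation within genotypes had a median of 5.96% over the 35 members, against 7.85% over 12166 genes with a mean level in the same range. That range was 1.35 to 253 CPM, and the genes in it were not matched to the members' levels. The 2 medians therefore do not show that the members were steadier than other genes at their levels. Among the members the coefficient was lowest for Acaca, at 1.77%, and highest for Tm7sf2, at 22.1%, with Scd2 at 11.8%. Summed over the 35 members, the level was 1969.8 to 2036 CPM in the Phlpp1 KO, 1957.5 to 2156 CPM in the Phlpp2 KO, 2029.7 to 2046 CPM in the Phlpp1/2 KO and 2115 to 2214 CPM in WT. The lowest WT sum lay above every Phlpp1 KO and Phlpp1/2 KO sum but below that of Phlpp2 KO 2. The 18 sterol enzymes and Stard4 together summed to 453 to 479 CPM in the Phlpp1 KO, 469 to 473 CPM in the Phlpp2 KO, 472 to 485 CPM in the Phlpp1/2 KO and 469 to 495 CPM in WT, with the groups overlapping. The 11 fatty acid genes summed to 1123 to 1176 CPM in the Phlpp1 KO, 1122 to 1288 CPM in the Phlpp2 KO, 1177 to 1187 CPM in the Phlpp1/2 KO and 1244 to 1289 CPM in WT, with the Phlpp1 KO and Phlpp1/2 KO sums all below WT. The difference lay mostly in Scd1, Scd2 and Me1, since Acaca, Acly and Elovl5 averaged 79.6 ± 1.45, 254 ± 14.8 and 71.5 ± 2.52 CPM in the Phlpp1 KO, against 79.8 ± 2.26, 257 ± 22.0 and 72.5 ± 0.923 CPM in WT (SD, n = 3 each). WT 1 was the highest library for 12 of the 35 members.

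As a description of 12 libraries that share their scaling, deviations of log2 CPM from the genotype mean were correlated between members. The median Pearson r over all 595 pairs was 0.034, near 0. The highest values were r = 0.94 for Fdft1 and Scd2, 0.87 for Sqle and Fasn, 0.86 for Insig2 and Me1, 0.85 for Scd1 and Scd2 and 0.82 for Hmgcs1 and Stard4. The lowest were −0.81 for Msmo1 and Scd1, −0.81 for Dhcr7 and Me1 and −0.795 for Mvk and Fads2. Over the 171 pairs of sterol genes the median was 0.028 and over the 55 pairs of fatty acid genes 0.089. For Scd1 and Scd2 the shared sequence touches both counts, and its part in their correlation was not tested.

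Further genes of the same pathways were described from 5 lists, and none of their members was called in any knockout against WT by edgeR. In the Phlpp1 KO the list of sterol efflux, uptake and esterification had 13 of 15 genes lower (median −0.19, 5 lower and 0 higher at an unadjusted p under 0.05). Of all genes tested, 8658 of 16565 were lower in this comparison, and 10.8% were higher and 9.54% lower at that p. The genes of this list with the smallest p were Nr1h3, a nuclear receptor for oxysterols, at −0.65 (SE 0.17, adjusted p = 0.0925), and Mylip, a ubiquitin ligase for lipoprotein receptors, at −0.32 (adjusted p = 0.121). The list of SREBP processing and further sterol steps had 7 of 12 lower (median −0.034, 3 higher and 3 lower at that p), with Erlin1, an endoplasmic reticulum protein that binds cholesterol, at 0.19 (0.0990) and Mbtps1, the protease that makes the first cut in SREBPs, at −0.25 (0.122).

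Still in the Phlpp1 KO, 14 of 22 genes of fatty acid and glycerolipid assembly were lower (median −0.066, 0 higher and 4 lower at that p). They were led by Slc25a1, the mitochondrial citrate carrier, at −0.24 (adjusted p = 0.0951) and Lpin1, a phosphatidate phosphatase, at −0.46 (0.140). Fatty acid oxidation and PPAR targets had 10 of 14 lower (median −0.12, 0 higher and 3 lower), with Plin2, which coats lipid droplets, at −0.39 (0.108) and the receptor gene Ppard at −0.22 (0.115). Of 8 AKT-linked regulators of SREBPs 6 were lower (median −0.085, 0 higher and 3 lower), with Akt2 at −0.25 (0.110) and again Lpin1, which stood in both lists.

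In the Phlpp2 KO the 5 lists had 11 of 15, 7 of 12, 18 of 22, 9 of 14 and 6 of 8 genes lower in the same order, where 8923 of all 16565 genes were lower. At an unadjusted p under 0.05, 0, 1, 1, 0 and 0 genes were higher and 2, 1, 3, 1 and 1 lower. Of all genes 8.48% were higher and 5.29% lower at that p. The highest log2 fold changes were 0.48, 0.20, 0.42, 0.18 and 0.15 in the same order, whereas the genes named below were all lower. Genes with small p values included Stard3, a sterol carrier of late endosomes (−0.26, adjusted p = 0.217), Npc1, which lets cholesterol out of them (−0.21, 0.275), Gpam (−0.20, 0.239) and Dgat1 (−0.18, 0.320), acyltransferases of glycerolipids, Pdk4 (−0.27, 0.355), a kinase that limits glucose oxidation, and Cpt1a (−0.16, 0.442), which admits fatty acids to mitochondria. Rptor, a subunit of the mTORC1 kinase, stood at −0.24 (0.230).

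In the Phlpp1/2 KO the counts of lower genes were 10 of 15, 6 of 12, 16 of 22, 9 of 14 and 7 of 8, where 8355 of all 16565 genes were lower. At an unadjusted p under 0.05, 0, 0, 0, 1 and 0 genes were higher and 2, 2, 1, 0 and 1 lower. Of all genes 4.99% were higher and 6.09% lower at that p. Genes with small p values included Lrp1, a lipoprotein receptor (−0.22, adjusted p = 0.402), Mylip (−0.22, 0.442), Erlin2 (−0.12, 0.345), Slc25a1 (−0.14, 0.451), Mlxip, a glucose-sensing transcription factor (−0.10, 0.553), Pparg (0.40, 0.319), the receptor known for fat cell formation, and Cpt1a (−0.17, 0.480). Rptor stood at −0.22 (0.322) and Gsk3b, a kinase that AKT inhibits, at −0.11 (0.513).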

How the data were processed

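Per the labels' protocols, RNA came from cultured epiphyseal chondrocytes, with libraries made by a NEBNext Ultra II kit. The deposited values were raw counts per gene, not normalized. Per the submitters' processing notes, the authors used bcl2fastq 2.17, STAR 2.5.2b, the mm10 build and featureCounts of Subread 1.5.2. No source used here gives the strand setting, the annotation release or how multi-mapping reads were treated. For 13 of the 35 members exons overlap another gene, for 10 of them on the other strand, and 16 share a stretch of at least 95% identity over at least 150 bases with another gene (BLAST+ 2.17.0, GENCODE vM21 transcripts), so part of their counts cannot be assigned with certainty.

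Counts were tested with edgeR 4.0.16 in R 4.3.3. Rows without a symbol (174, 0.00419% of counts) were kept. The edgeR filter on low counts kept 16565 of 49315 genes, libraries were scaled with TMM factors, and all 12 libraries entered 1 model with genotype as its term (8 residual degrees of freedom, quasi-likelihood F test with robust estimation). Library totals were 21706337 to 33115345 counts, so 1 count was 0.0295 to 0.0453 CPM. Adjusted p values are Benjamini-Hochberg values over all tested genes, and those under 0.05 were called. Intervals are 95% intervals of the model's log2 fold change, written as percent change where said. Simulated Phlpp1 KO and WT counts (16345 genes, 50 changed at each size) were used as a test, in which recovery was 8% for genes changed 1.25-fold, 64% for 1.5-fold, 90% for 2-fold and 98% for 4-fold changes, and 5 of 135 calls were false.

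The members, lists and rule for naming genes were chosen with earlier results of these data known. The rule gave values in every library for Srebf1, Srebf2, Insig1, Hmgcs1, Sqle, Fasn and Scd1, for any called member, and for the 3 members with the smallest p in each comparison, and the 2 genes with the smallest p in each list, of which some are not reported here. Alternatives were RLE size factors, no filter, DESeq2 1.42.0, only the libraries compared, a replicate block, leaving out each library in turn and leaving out both libraries low in Xist.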

Additional observations from a re-analysis of the deposited data

How the results depend on the processing

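Of 818 values from 46 member results recomputed under the alternatives, 770 kept their direction and side of the threshold, 23 newly passed it and 25 changed sign. No filter gave 1 called member in the Phlpp1 KO and 1 for Phlpp1 loss (Scd1 both times). DESeq2 gave 4, 3 and, in the Phlpp1/2 KO, 1, and the 6 libraries compared gave 4 in the Phlpp1 KO. Leaving out each library gave 0 to 3 called members in the Phlpp1 KO, 0 to 3 for Phlpp1 loss and 0 to 2 for the interaction, and 0 in the other comparisons.

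Genes called in all, in the order Phlpp1 KO, Phlpp2 KO, Phlpp1/2 KO, Phlpp1 loss, Phlpp2 loss and interaction, were 89, 20, 39, 98, 15 and 8 as reported. They were 461, 110, 102, 274, 40 and 183 with no filter, and 995, 318, 164, 406, 59 and 641 with DESeq2. With the 6 libraries compared there were 1163 in the Phlpp1 KO. The ranges with each library left out were 16 to 647, 9 to 159, 18 to 57, 38 to 568, 10 to 20 and 5 to 1196. Without both libraries low in Xist they were 18 in the Phlpp1 KO, 28 for Phlpp1 loss and 4 for the interaction. Higher against lower calls in the Phlpp1 KO were 35 and 54 as reported, 259 and 202 with no filter, 599 and 396 with DESeq2, and 772 and 391 with the libraries compared. Replicate numbers are not known to pair the libraries. Deviations from genotype means had r of −0.16 to 0.30 over 18 same-number pairs and −0.28 to 0.22 over 36 other pairs. These overlapping ranges cannot decide whether the numbers pair libraries. A replicate block called 0 members in any comparison. It called 245 and 84 genes in the Phlpp1 and Phlpp2 KO, 51 for Phlpp1 loss and 308 for the interaction. The cause of these shifts was not tested.

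Ebp in the Phlpp2 KO, at −0.0027, was 0.0024 with RLE factors, 0.0101 with no filter, 0.0025 with DESeq2, 0.0078 with the libraries compared and 0.0119 without the low-Xist libraries. Hmgcs1 in the Phlpp1 KO was −0.0183 without those. With each library left out, signs turned for Ebp in the Phlpp2 KO (−0.0647 to 0.0639), Hmgcs1 (−0.0376 to 0.1185) and Fasn (−0.1251 to 0.0016) in the Phlpp1 KO, Scd1 (−0.2212 to 0.0228) and Scd2 (−0.3064 to 0.0359) in the Phlpp2 KO, and Fasn (−0.1202 to 0.0012), Insig1 (−0.0549 to 0.16), Elovl6 (−0.1114 to 0.1276) and Idi1 (−0.0666 to 0.1563) in the Phlpp1/2 KO. None of these values passed the threshold in any setting.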
